A study of Drosophila melanogaster with 6 samples.

Results

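The genes described here build the vesicle coats, adaptors and Golgi scaffold of the Drosophila melanogaster cell. They are 39 genes chosen by symbol out of the 17117 rows of the authors' deposited table. The set holds the 7 subunits of the COPI coat, 7 COPII genes, clathrin heavy and light chain, the 7 subunits of AP-1 and AP-2, the 4 subunits of AP-3, Arf79F with 2 exchange factors, 7 Golgi matrix and tether genes and 2 Golgi SNAREs. All 39 symbols were matched exactly and all 39 rows had reads. The set was put together because gammaCOP and Grasp65 stood out in the same comparison that is described below, so its values are given as a description and no test is made on them.

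COPII vesicles bud from the endoplasmic reticulum and carry new secretory and membrane proteins to the Golgi, and COPI vesicles return proteins from the Golgi to the endoplasmic reticulum and between Golgi cisternae. Clathrin with its adaptors forms vesicles at the trans-Golgi network, endosomes and plasma membrane, and in neurons clathrin with AP-2 also takes part in the recycling of synaptic vesicles. Golgins and GRASP proteins hold cisternae and incoming vesicles together, and SNAREs fuse the vesicles with their target.

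Messenger RNA was measured in mushroom body output neurons, which carry the output of the fly's learning centre, sorted by FACS from brains of mated females aged 3 to 4 days and dissected between ZT12 and ZT13.5. The sorted types were γ5β′2a, β′2mp and β′2mp_bilateral, marked by the MB011B split-GAL4 driver. All flies carried UAS-CD8::GFP, a membrane-bound fluorescent marker, with the driver components R14C08-p65.AD and R15B01-GAL4.DBD. Opposite each component, 3 libraries carried UAS-bantam_sponge and 3 libraries carried UAS-scramble_sponge. A sponge is a transcript with repeated sites for a microRNA, here bantam, which it binds and so keeps from its targets, and the scramble version holds altered sites. The same driver expressed the marker and the sponge, the control flies carried the scramble sponge rather than none, and each library pooled cells of the 3 types. The labels call the libraries biological replicates.

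The neuronal labels were checked against marker genes. All 10 pan-neuronal markers had reads in the authors' deposited table, and their summed level inferred from it was 6914 CPM (counts per megaread, the reads of a gene scaled to library size) in bantam sponge and 6434 CPM in scramble sponge. VGlut, the vesicular glutamate transporter that marks glutamatergic neurons, was at an inferred 1550 and 1775 CPM. Got2, the other gene put in the glutamatergic list, was at an inferred 18.3 CPM in bantam sponge and 157 CPM in scramble sponge. Its unadjusted p in the authors' deposited table was 0.267 (edgeR's exact test), and whether Got2 is specific to these neurons was not tested. Markers of other cells were also read. Of 12 hemocyte markers 10 had reads, 9 of the 10 had a fold below 0 in the authors' deposited table, and their summed level was 882 CPM in bantam sponge against 4376 CPM in scramble sponge, with He and eater at 0 in all libraries. The 10 glial markers, 7 with a fold above 0 and 3 below in the authors' deposited table, summed to 2288 and 1046 CPM. Of these sums Gs2 made up 1270 and 541 CPM, while repo was at 0.980 CPM in bantam sponge and 102.1 CPM in scramble sponge. The 8 fat body markers with reads, 2 with a fold above 0 and 6 below in the authors' deposited table, summed to 238 and 453 CPM. Col4a1, at 2.24 and 251 CPM, was listed for hemocytes and for fat body and counts in both sums. FASN1, with a fold above 0, made up 231 and 97.4 CPM of the fat body sums. The 9 photoreceptor markers with reads summed to 114.7 and 273 CPM. In a bulk library, fewer cells of a type and less RNA per cell cannot be told apart.

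For each gene the authors' deposited table gives an average log2 CPM across the 6 libraries, a log2 fold change that is positive where bantam sponge is higher, and the unadjusted p of edgeR's exact test, with no value for a single library. The values of genes with 1 read fixed the 6 library sizes, which were 119, 43.8 and 8.18 megareads in bantam sponge and 98.0, 43.6 and 5.31 megareads in scramble sponge, a 22.4-fold range. Which of these was replicate 1, 2 or 3 is not known, so libraries are called the largest, middle and smallest of their genotype. With the sizes known, the reads of a gene in each library could be solved from its 3 deposited values when one genotype had few reads. The search allowed 0 to 3 reads in one genotype. It was run on 620 genes whose absolute log2 fold change exceeded their mean log2 CPM by over 6. Exactly 1 solution was found for 591 of the 620 (95.3%), and for 0 of the 620 when the deposited mean was shifted by a small amount. Whether the unsolved genes had more reads there is not known. For the other genes only the mean level of each genotype could be inferred. Reads were found for 9286 rows of the authors' deposited table, and none had an adjusted p under 0.05, the smallest being 0.467 (Benjamini-Hochberg over all rows, edgeR's exact test). At an unadjusted p under 0.05 there were 290 rows lower and 98 rows higher in bantam sponge.

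The set as a whole was well read. The mean log2 CPM in the authors' deposited table was at least 3 in 38 of the 39 genes and at least 6 in 25. Per kilobase of exon, the median gene of the set was at 37.8 CPM over both genotypes, against 13.0 CPM for the 9220 rows with reads and an annotated length, and 29 of the 39 lay above that median. At an unadjusted p under 0.05, 2 of the 39 genes were lower in bantam sponge in the authors' deposited table, gammaCOP and Grasp65, where 3.12% of all rows with reads were. None was higher, where 1.06% of all rows were, and none passed an adjusted p of 0.05, as in 0% of all rows. Nothing is read from these counts, because both genes were the reason for the choice. Of the folds in the authors' deposited table, 24 of the set were above 0 and 15 below, or 38.5% below against 53.5% of all rows with reads. The median log2 fold change was 0.47 in the set and −0.13 over all rows with reads. The p exceeded 0.5 for 32 of the 39 genes.

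**Figure D1:**
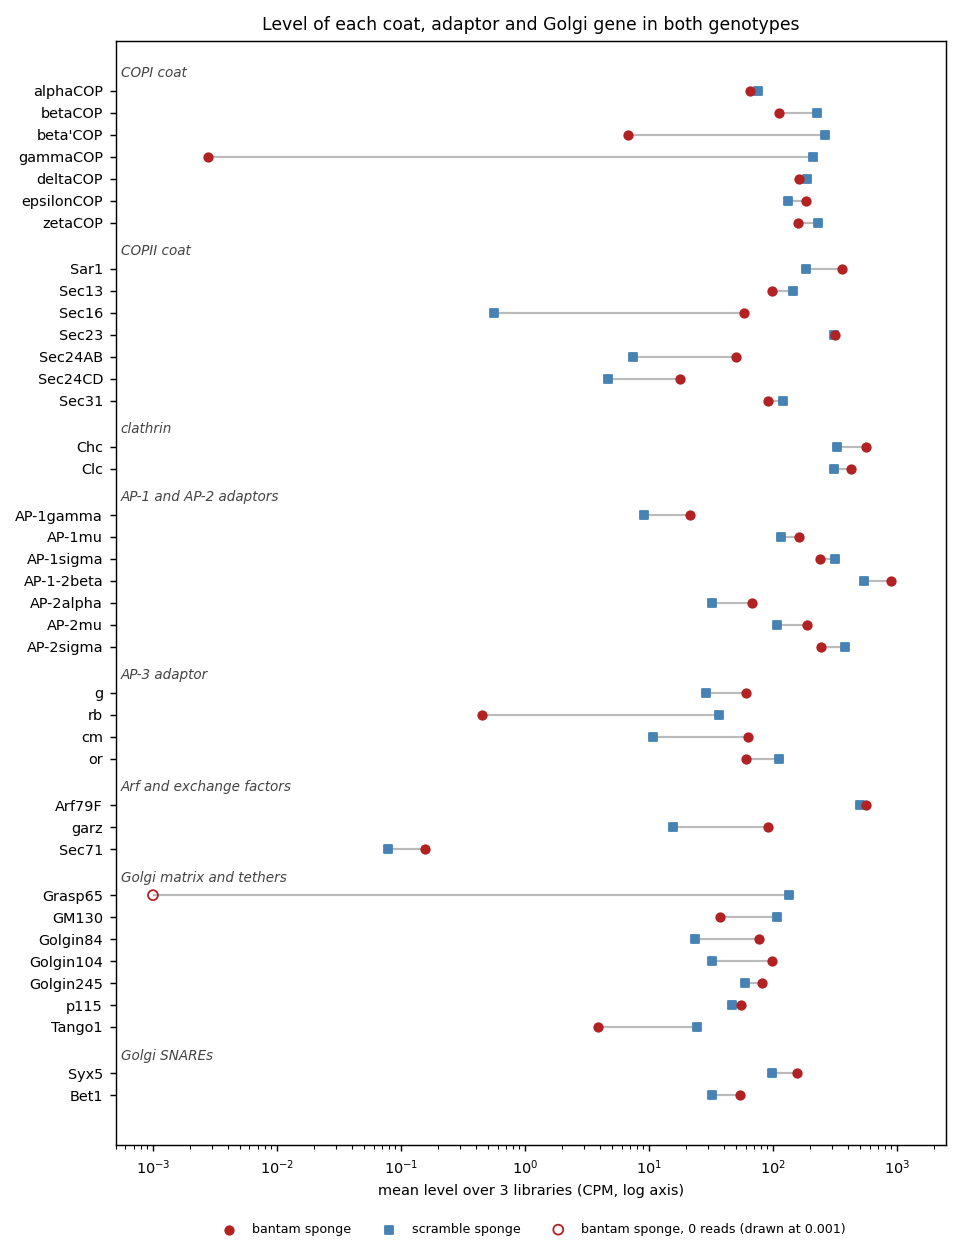
Mean level of each of the 39 genes over the 3 bantam sponge libraries (red circles) and the 3 scramble sponge libraries (blue squares), in CPM on a log axis, grouped by role. Most pairs lie close together, while gammaCOP and Grasp65 (open circle, no read, drawn at the left edge) are at 211 and 136 CPM in scramble sponge and at the left of the axis in bantam sponge.

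COPI holds the gene with the smallest p of the set. The 7 COPI subunits form 1 complex, coatomer, that is recruited to Golgi membranes as a unit. The gene of its γ subunit, gammaCOP (FBgn0028968, 3R:31572143-31575707 on the plus strand, dm6), was read 28452 times in the largest scramble library, 3797 times in the middle one and 1359 times in the smallest. These reads were 290, 87.1 and 256 CPM, or 211 ± 109 CPM (SD, n = 3). In bantam sponge it was read once, in the largest library, and not at all in the other two libraries. That single read was 0.00840 CPM in a library of 119 megareads. The lowest scramble library was thus far above the highest bantam library and the genotypes did not overlap. The share of all rows that separate in this way is not known, here or for the genes below. Reads per library were solved for a minority of rows only. Over the pooled libraries the scramble level was 39125 times the bantam level, with a 95% Poisson interval from 7022 to 1545355 that covers counting error only. In the authors' deposited table the gene had the smallest p of all rows, 4.1e-05 (exact test), at a mean log2 CPM of 6.72.

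No other COPI gene was near 0. The gene of the β′ subunit, beta'COP (2L:13378902-13382382), which with the α subunit forms the cargo-binding outer layer, was at an inferred 6.81 CPM in bantam sponge and 260 CPM in scramble sponge. Its log2 fold change in the authors' deposited table was −5.26 (95% interval −10.90 to 0.38, exact test p = 0.0635) and its reads per library were not solved. The interval restates the deposited p and holds 0. The other 5 subunits differed by far less. For betaCOP the authors' deposited table gives a fold of −1.03 (interval −6.27 to 4.21), with 111 CPM inferred in bantam sponge and 227 CPM in scramble sponge. The zetaCOP fold was −0.52 with 160 and 229 CPM inferred from the authors' deposited table. The deltaCOP gene, with a fold of −0.19 in the authors' deposited table, was at 163 and 186 CPM. The alphaCOP gene, with −0.22 in the authors' deposited table, was at 64.7 and 75.2 CPM. The epsilonCOP gene, whose product stabilises the α subunit, was the single one above 0, at 0.46 in the authors' deposited table, with 183 and 133 CPM. Each of these 5 intervals holds 0 and reaches at least 3 log2 units on one side, so smaller differences between genotypes could not be detected.

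Per kilobase of exon, gammaCOP stood at 64.5 CPM in scramble sponge. The median of the other 6 subunits was 85.4 CPM per kilobase in scramble sponge and 55.0 in bantam sponge. In the scramble libraries gammaCOP therefore lay within the range of its partners, 18.4 to 187 CPM per kilobase. In the bantam libraries it was at 0.000855 CPM per kilobase, while the lowest of the other 6 subunits, beta'COP, was at 2.22. The summed level of the 7 subunits inferred from the authors' deposited table was 689 CPM in bantam sponge and 1322 CPM in scramble sponge. Most of that difference lay in gammaCOP (0.00280 and 211 CPM) and beta'COP (6.81 and 260 CPM). Of the 7 deposited folds 6 were below 0, where 53.5% of all rows with reads were. Nothing is read from the sum or the count, because gammaCOP was a reason for the choice of the set.

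**Figure D2:**
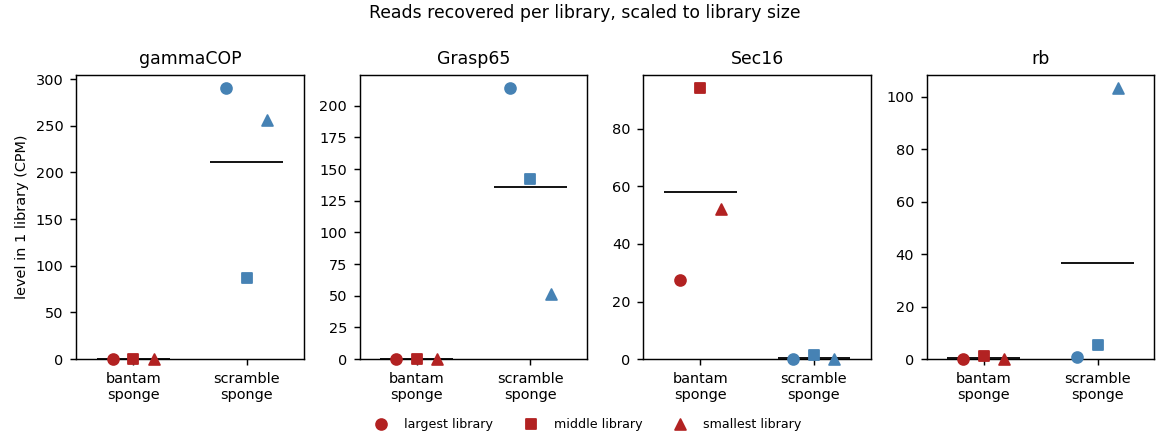
Reads solved for each library, in CPM on linear axes that start at 0, for gammaCOP, Grasp65, Sec16 and rb; circles, squares and triangles mark the largest, middle and smallest library of a genotype and lines mark the mean. Grasp65 has no read in any bantam library, and 94.4% of the summed scramble level of rb lies in the smallest library.

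Among the Golgi matrix genes, Grasp65 had the second value that led to the choice of the set. It encodes the fly's GRASP protein, which in mammals links Golgi cisternae into stacks. Grasp65 (FBgn0036919, 3L:19924943-19927175 on the plus strand, dm6) was read 20968 times in the largest scramble library, 6186 times in the middle one and 272 times in the smallest. These were 214, 142 and 51.3 CPM, or 136 ± 81.5 CPM (SD, n = 3). It had 0 reads in each of the 3 bantam libraries. A floor of 3 reads over the pooled bantam libraries is 0.0175 CPM, and the scramble mean was 7736 times that floor. The floor covers counting error only and not the spread between libraries, so the ratio is no lower bound on the difference. The genotypes did not overlap. No other gene of the set was without a read in a whole genotype. Of all rows with reads, at least 6.64% had none in bantam sponge and at least 3.51% had none in scramble sponge. Both shares are lower bounds, because the count misses rows with very few reads, which stay in the total. How rare such a gene is was therefore not measured. The p in the authors' deposited table was 0.000646 (exact test), rank 6 of all rows, at a mean log2 CPM of 6.09.

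GM130, the cis-Golgi golgin that binds GRASP65 in mammals, had reads in both genotypes. Its inferred level was 37.5 CPM in bantam sponge and 107 CPM in scramble sponge, with a log2 fold change of −1.51 in the authors' deposited table (interval −8.61 to 5.58). Tango1, a cargo receptor and organiser of endoplasmic reticulum exit sites, had a fold of −2.64 in the authors' deposited table (interval −11.62 to 6.35) from an inferred 3.91 and 24.3 CPM. The 4 other tethers had folds above 0. In the authors' deposited table these were 1.74 for Golgin84, a golgin of cisternal rims, and 1.60 for Golgin104. Golgin245, a golgin of the trans-Golgi, was at 0.47 and p115, which tethers incoming vesicles, at 0.24, again in the authors' deposited table. All 6 intervals of these genes held 0. The Golgi SNAREs Syx5, a syntaxin, and Bet1 had folds of 0.66 and 0.74 in the authors' deposited table, with inferred levels of 156 and 98.7 CPM for Syx5 and 54.1 and 32.3 CPM for Bet1.

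The spread of a gene's reads over the 3 libraries of a genotype was described for the genes whose reads could be solved. At a mean log2 CPM between 3 and 8 these were 583 genes, 392 with 0 to 3 reads in bantam sponge and 191 with 0 to 3 reads in scramble sponge, and genes above that range or without a solution are not among them. Of the 392, 152 had all their scramble reads in 1 library, 154 in 2 libraries and 86 in all 3. In the median gene of the 392, 99.6% of the summed scramble CPM lay in 1 library. For gammaCOP this share was 45.8% and for Grasp65 52.5%. Both genes were chosen for their values in these same libraries, so their place among the 392 is a description and nothing is read from it.

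**Figure D3:**
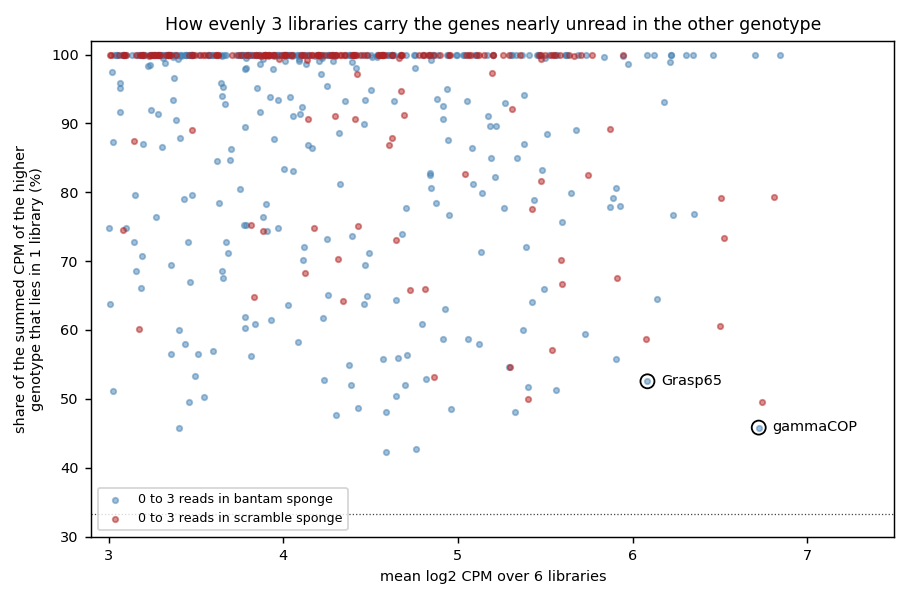
For each solved gene with 0 to 3 reads in one genotype and a mean log2 CPM of 3 or more, the percentage of its summed CPM in the other genotype that lies in a single library, against mean log2 CPM; the dotted line marks equal levels in all 3 libraries. Most genes lie at or near 100%, and gammaCOP (45.8%) and Grasp65 (52.5%) are circled.

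The libraries of both genotypes differed among themselves in markers of other cells. The hemocyte markers Hml, Ppn and Sr-CI had 1183, 19460 and 2721 reads in the middle scramble library and 0 to 2 in each of the other scramble libraries, while srp had 0, 29 and 145 reads in the largest, middle and smallest. PPO1, a hemocyte marker whose reads per library were not solved, was inferred at 1336 CPM in the scramble genotype and without a read in the bantam one. The fat body marker Yp1 had 602, 4021 and 0 reads in the scramble libraries and 0 in bantam sponge. The photoreceptor marker ninaE had 2, 0 and 517 scramble reads. Other markers went the other way. The glial markers e and moody had 27905 and 2762 reads in the largest bantam library and 0 in all others. The photoreceptor marker Rh4 had 384 in the smallest bantam library and 0 in all others. Pxn, the 1 hemocyte marker with a fold above 0, was at an inferred 728 CPM in bantam and 443 CPM in scramble sponge. FASN1, 1 of 2 such fat body markers, was at 231 and 97.4 CPM. The part of these cells in the values of gammaCOP and Grasp65 was not tested. Without the largest scramble library the scramble mean was 172 CPM for gammaCOP and 96.6 CPM for Grasp65. Without the middle one the means were 273 and 133 CPM, and without the smallest 189 and 178 CPM. Of the replicates, 2 were sequenced on a NextSeq and 1 on a HiSeq, per the labels, and the sources used here do not say which library was which, so the part of the instrument was not tested.

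In COPII, 5 of 7 deposited folds were above 0, the summed inferred level was 987 CPM in bantam sponge and 773 CPM in scramble sponge, and no gene had an unadjusted p under 0.05. Sec16 (X:12596047-12609910), the large scaffold that organises endoplasmic reticulum exit sites, differed most. It was read 3287, 4116 and 426 times in the largest, middle and smallest bantam libraries, or 27.6, 94.1 and 52.1 CPM (57.9 ± 33.6, SD, n = 3). In scramble sponge it had 0, 65 and 1 reads, or 0, 1.49 and 0.188 CPM (0.560 ± 0.812, SD, n = 3). Every bantam library was above every scramble library, and again the share of all rows that separate so is not known. The log2 fold change in the authors' deposited table was 6.67 (interval −1.54 to 14.88, exact test p = 0.0927), opposite in direction to gammaCOP and Grasp65. Without the middle library the scramble mean fell to 0.0942 CPM, since 65 of the 66 scramble reads came from it.

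The core COPII genes lay closer together. The inner coat gene Sec23, which activates the GTPase of Sar1, was at an inferred 314 and 309 CPM, with a fold of 0.03 in the authors' deposited table (interval −3.96 to 4.01). Sar1 itself, the GTPase that starts coat assembly, had a fold of 0.95 in the authors' deposited table, with 357 and 184 CPM. The cargo-binding subunits Sec24AB and Sec24CD had folds of 2.77 and 1.93 in the authors' deposited table, from 50.5 against 7.38 CPM and from 17.9 against 4.69 CPM. Their intervals were −5.83 to 11.38 and −10.80 to 14.66, the second being the widest of the set. The outer cage genes Sec13 and Sec31 were at −0.57 and −0.41 in the authors' deposited table.

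Both clathrin chains were among the most abundant genes of the set. Chc, the heavy chain, was at an inferred 561 CPM in bantam sponge and 325 CPM in scramble sponge, with a log2 fold change of 0.79 in the authors' deposited table (interval −2.81 to 4.38). Clc, the light chain, was at 429 and 311 CPM with a fold of 0.47 in the authors' deposited table. AP-1-2beta, the β subunit that AP-1 and AP-2 share in flies, was the most abundant of all 39, at 887 and 545 CPM. Its fold in the authors' deposited table was 0.70 with the narrowest interval of the set, −2.27 to 3.68. Even there, a difference of less than about 3 log2 units could not have been told from the spread between libraries.

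The remaining AP-1 and AP-2 genes had folds on both sides of 0. Above 0 in the authors' deposited table were AP-1gamma (1.24), AP-1mu (0.47), AP-2alpha (1.08) and AP-2mu (0.82), which are large and medium subunits that bind membrane and cargo. Below 0 in the authors' deposited table were both small subunits, AP-1sigma (−0.40) and AP-2sigma (−0.64), at 240 and 316 CPM and at 244 and 382 CPM in bantam and scramble sponge. The summed level of the 7 subunits was 1811 CPM in bantam sponge and 1507 CPM in scramble sponge.

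AP-3 carries cargo to lysosomes and related organelles, and its 4 subunits are known in flies by the eye colours of their mutants. The β subunit gene rb, ruby (X:4535635-4540626), differed most. It was read 73, 233 and 548 times in the largest, middle and smallest scramble libraries, or 0.745, 5.35 and 103 CPM, and 3, 58 and 0 times in bantam sponge, or 0.0252, 1.33 and 0 CPM. The genotypes overlapped, since the middle bantam library was above the largest scramble library. The scramble mean was 36.5 ± 57.9 CPM (SD, n = 3) and fell to 3.05 CPM without the smallest library. The fold in the authors' deposited table was −6.32 (interval −15.58 to 2.94, exact test p = 0.141). The δ subunit gene g, garnet, was at an inferred 60.5 and 28.7 CPM with a fold of 1.08 in the authors' deposited table. The μ subunit gene cm, carmine, was at 62.9 and 10.7 CPM with a fold of 2.55 in the authors' deposited table. The σ subunit gene or, orange, was at 60.4 and 112 CPM with a fold of −0.89 in the authors' deposited table.

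Arf79F is the fly's ARF1, the GTPase that recruits COPI and AP-1 to Golgi membranes. Its inferred level was 565 CPM in bantam sponge and 507 CPM in scramble sponge, with a log2 fold change of 0.16 in the authors' deposited table (interval −2.90 to 3.22). The exchange factor garz, the fly's GBF1, which loads it with GTP at the early Golgi, was at 90.5 and 15.5 CPM with a fold of 2.55 in the authors' deposited table (interval −9.67 to 14.76). Sec71, the exchange factor of the late Golgi, was nearly unread, with 0, 15 and 1 reads in the bantam libraries and 0, 2 and 1 reads in the scramble libraries. It was the one gene of the set with a mean log2 CPM below 3 in the authors' deposited table, at −2.73.

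**Figure D4:**
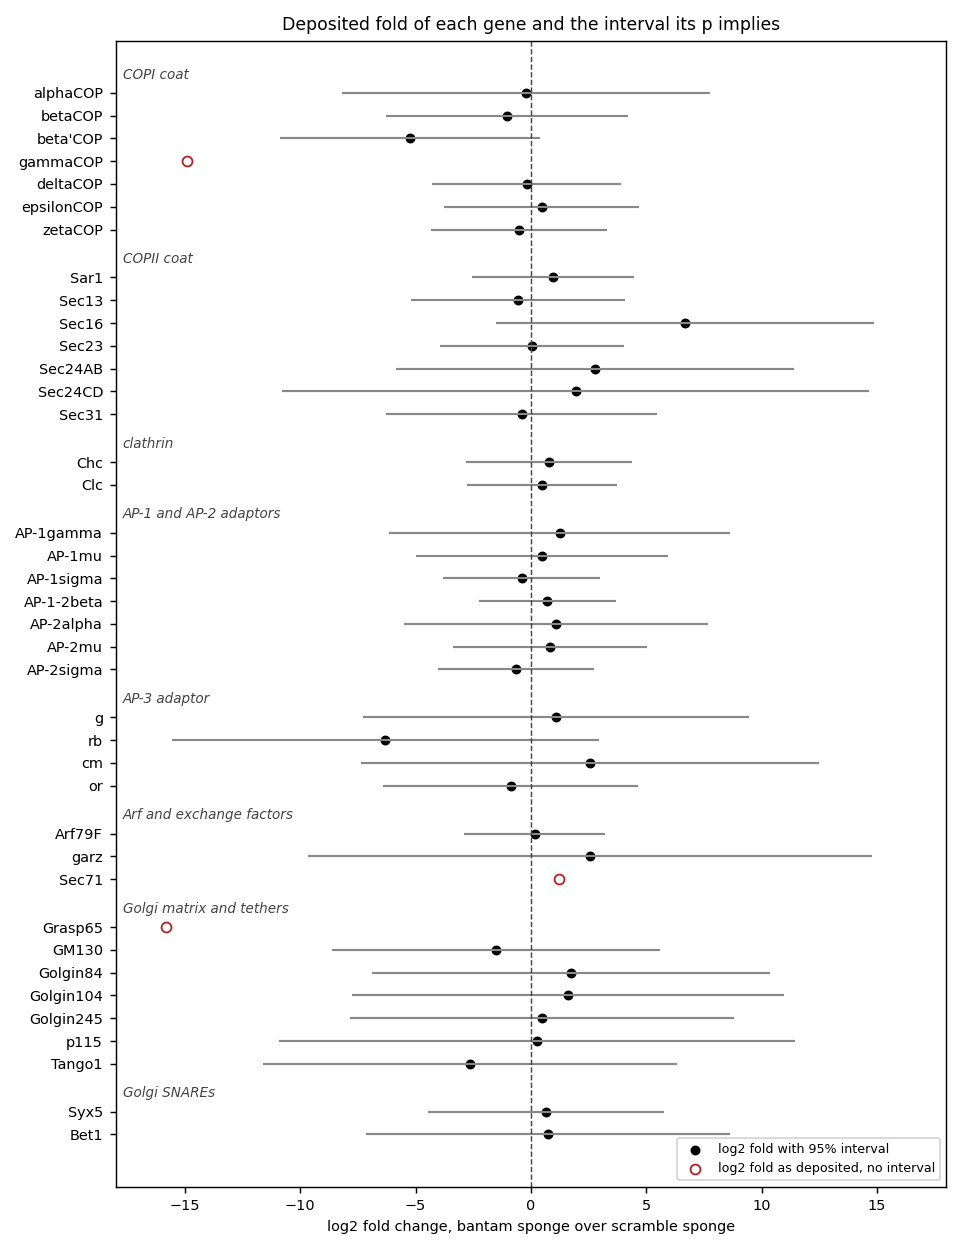
Log2 fold change of the 39 genes as deposited, positive where bantam sponge is higher, with 95% intervals that restate the deposited p; the dashed line marks 0, and open circles mark gammaCOP, Sec71 and Grasp65, which have no interval. All 36 intervals hold 0.

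Of the 39 genes, 36 had an interval for the log2 fold change and all 36 intervals held 0. Their distance from the fold to either end was 5.76 log2 units in the median gene, from 2.97 to 12.73. The absolute log2 fold change in the authors' deposited table was under 1 in 21 genes and under 2 in 30. It was over 5 in 5 genes (12.8%), gammaCOP, Grasp65, beta'COP, Sec16 and rb, against 15.5% of the 6265 rows whose mean log2 CPM was 3 or more. Reads of overlapping genes could add to some values, because the library protocol does not mark strand. Exons of 12 of the 39 genes overlap those of another gene, Clc on its own strand and 11 on the opposite strand, up to 20.9% of the exon bases of Bet1. None of gammaCOP, Grasp65, beta'COP, Sec16 and rb has such an overlap.

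**Figure D5:**
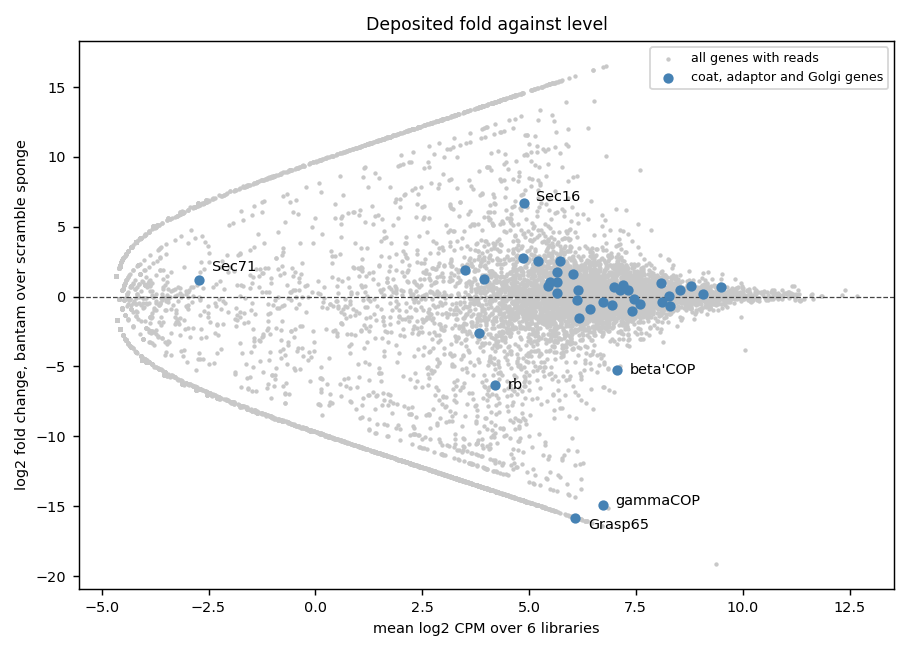
Log2 fold change against mean log2 CPM for all rows with reads (grey) and the 39 genes (blue), both as in the authors' deposited table. Genes without a read in one genotype form the upper and lower edges; Grasp65 lies on the lower edge and gammaCOP just inside it, while most of the 39 lie near 0.

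Other genes of the same pathways were listed for comparison, 101 in all, of which 98 had reads. Of their folds in the authors' deposited table, 50 of the 98 were above 0 and 48 below, and at an unadjusted exact test p under 0.05 there were 2 higher and 2 lower, where 1.06% and 3.12% of all rows with reads were. None of the 4 passed an adjusted p of 0.05. Use1, an endoplasmic reticulum SNARE that receives COPI vesicles, had 146, 2.74 and 207 CPM in the largest, middle and smallest bantam libraries against 0.561, 2.07 and 0 CPM in the scramble libraries. Its p in the authors' deposited table was 0.0417 (exact test), and the middle bantam library was close to the scramble libraries. TRAM, of the endoplasmic reticulum translocon, had 65.6, 22.7 and 0 CPM in the bantam libraries and 1 read in scramble sponge (p = 0.0439 in the authors' deposited table, exact test). Zfrp8 had 42.6, 168 and 0 CPM in the scramble libraries and 2 reads in bantam sponge (p = 0.0191 in the authors' deposited table, exact test). It was listed with Golgi proteins but is known for a role in blood cells and stem cells. Osbp, a lipid transfer protein of endoplasmic reticulum and Golgi contacts, had 1.18, 11.6 and 16.96 CPM in scramble sponge and 0 reads in bantam sponge (p = 0.0307 in the authors' deposited table, exact test).

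By list, the other SNAREs and fusion factors had 7 folds above and 8 below 0 in the authors' deposited table, with alphaSnap (−0.41) and Syx6 (0.43) the most abundant. TRAPP, a tether at the early Golgi, had 3 above and 6 below in the authors' deposited table, led by Trs20 (−0.21) and Trs31 (−0.57). COG, a tether for vesicles within the Golgi, had 3 above and 5 below in the authors' deposited table, led by CG1968, the Cog6 gene (−0.72), and fws (0.34). The p24 proteins and cargo receptors, which ride in COPI and COPII vesicles, had 6 above and 4 below in the authors' deposited table, led by CHOp24 (0.22) and bai (−0.25). Other Arf and Arl genes and their regulators had 5 above and 10 below in the authors' deposited table, led by Arl4 (0.36) and ArfGAP3 (−1.07). Genes listed with other Golgi proteins had 14 above and 6 below in the authors' deposited table, led by Tango7 (−0.18) and Rab2 (0.61). A place in that list does not show that the product of a gene acts at the Golgi. Endocytic and clathrin accessory genes had 9 above and 6 below in the authors' deposited table, led by the chaperone gene Hsc70-4 (−0.03), which uncoats clathrin vesicles, and the dynamin gene shi (0.44). The translocon genes had 3 on each side in the authors' deposited table, led by Sec61alpha (1.27) and SsRbeta (−0.25).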

How the data were processed

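Sorted neurons were profiled with a modified SMART-seq2 protocol of 25 PCR cycles and Nextera XT, per the labels' protocols. STAR, Picard, HTSeq and edgeR, and the build dm6, come from the submitters' processing notes, which give no version or setting. The table deposited by the authors holds log2 fold changes and mean log2 CPM, and its p-value column holds unadjusted p-values of edgeR's exact test, per the file headers. Library sizes (residual under 1e-09 for 335 of 424 low genes not used to solve them, 0 after a shift), group means, reads per library and 95% intervals were computed from these values in Python 3.11.15 with SciPy 1.17.1, taking prior counts of 2 for the mean and 0.125 for the fold. Reads were accepted within 2e-06 of a whole number and a relative 1e-06 of the deposited p. A wider search for 6 listed genes with more than 3 reads in the lower genotype, Sec16 and rb among them, gave 1 solution for 6 of 6, and 0 of 6 after a shift of the mean. On simulated data 120 of 120 genes were solved correctly, group means erred by a median of 0.0228% (997 genes), and 95.4% of the intervals of 996 genes held the simulated fold. These intervals were simulated at 1 known dispersion (spread between libraries beyond counting error) of 2.5, which also gave their p. Dispersions implied for the set ran from 1.29 (AP-1-2beta) to 8.45 (Sec24CD). The coverage thus tests the inversion of p only, and not how well dispersions were estimated in these data. Sizes include any normalization factor. The Poisson interval and the floors cover counting error only, fold intervals restate the deposited p, and PCR copies are not independent molecules. Coordinates, exon lengths and overlaps come from Ensembl release 115. Benjamini-Hochberg adjustment ran over all rows. The 39 genes and all lists were chosen with earlier results of these data known. Genes outside the 39 are named if their deposited p was under 0.05 or they were the 2 most abundant of their list. The markers named singly and the genes in the closing section were named after their values were seen. Of the listed symbols, 5 matched no row.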

Additional observations from a re-analysis of the deposited data

How the results depend on the processing

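No paired analysis was possible because the deposited table tests both genotypes together and the replicate number of each library is not known. For the same reason the deposited p-values could not be recomputed without a replicate. A planned search for bantam sites in the transcripts was not run. Of 47 alternative values compared, 45 moved by less than 1 SD between libraries or, for counts, by less than 1.5 times. Most of them could not have failed. A mean of 3 libraries cannot move by 1 SD when 1 of them is left out. The setting with exact symbols only repeats the main value, because every symbol of the set was matched exactly. The tally is therefore no measure of stability. The number of genes without a read in one genotype went from 1 to 0 at a gap of 9.8 between fold and mean in place of 9.3, which is wider than the gap of 9.73 that Grasp65 has with 0 reads. The level inferred for gammaCOP in bantam sponge went from 0.00455 to 0.00219 CPM with a prior count of 0.25, so its solved read is given instead. No gene passed an adjusted p under Benjamini-Hochberg over rows with reads or under Holm. The median log2 fold change was 0.46 with a filter on the mean and 0.43 after centring, and 16 folds were below 0 after centring. Leaving out each library in turn, added after seeing the data, gave scramble means from 172 to 273 CPM for gammaCOP, from 96.6 to 178 for Grasp65 and from 3.05 to 54.3 for rb, and bantam means from 39.8 to 73.1 for Sec16. Genes whose mean rests on 1 library moved more than 1.5 times within a wide SD. Without the smallest library the scramble mean went from 36.5 to 3.05 CPM for rb and from 0.0781 to 0.0230 CPM for Sec71. Without the middle library it went from 0.560 to 0.0942 CPM for Sec16 in scramble sponge, from 0.450 to 0.0126 CPM for rb in bantam sponge and from 0.155 to 0.0611 CPM for Sec71 in bantam sponge. Depth limits the smallest libraries most, where 3 reads are 0.367 CPM in bantam sponge and 0.565 CPM in scramble sponge.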

Other observations

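The COG complex tethers vesicles within the Golgi, and 3 of its 8 listed genes had reads in few scramble libraries and nearly none in bantam sponge. The genes of this section were singled out after their values were seen. The other listed COG genes were inferred to have reads in both genotypes. Reads in few libraries were common. Of the 392 solved genes with 0 to 3 reads in bantam sponge, 152 had all scramble reads in 1 library and 154 in 2. CG7456, the Cog4 gene, had 22167 reads in the largest scramble library and 0 in both others, with 27 reads in the largest bantam library. The Cog2 gene ldlCp had 7481, 0 and 110 reads in the largest, middle and smallest scramble libraries and 67 reads in the largest bantam library. Cog7 had 0, 28 and 538 reads in scramble sponge and 0 in bantam sponge. Of these 3 COG genes only Cog7 belongs to the 392, since the other COG genes just named had more bantam reads. The share of all rows with such reads is not known, so nothing is read from the count of 3 in 8. The golgin gene Gmap had 13, 8508 and 0 scramble reads and 11 bantam reads. Tango6 showed the opposite side, with 702 reads in the smallest bantam library and 0 in all other libraries. None of these 5 genes had reads in every library of either genotype.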
